A study of Homo sapiens with 22 samples.

Results

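Cluster 4 of the WM989 melanoma cells was a group of 1202 cells that the deposited cell labels placed in cluster 4 and in the drug-susceptible, non-primed state, out of 12531 cells in the untreated single-cell RNA-seq experiment. It was set against 8486 other non-primed cells, which fell into 7 clusters (0, 1, 3, 5, 6, 7 and 10), and against 2843 primed cells in clusters 2, 8 and 9. WM989 is a human melanoma cell line that carries the BRAF V600E mutation, and primed cells are the rare untreated cells that are more likely to survive BRAF and MEK inhibitors. The untreated WM989 cells carried a lentiviral lineage barcode, were sorted into a mixed population and an EGFR/NGFR-high population, and were expanded before capture in 8 wells, of which wells 1 to 4 were labelled r1 and wells 5 to 8 r2. The labels did not say which sort each well held. A second experiment compared WM989 cells left untreated or given TGFB1, the TGF-beta receptor inhibitor LY2109761 (TGFBRi) or the PI3K inhibitor GDC-0941 (PI3Ki), with 2 libraries per treatment. The sample labels call these 2 libraries Mix and Primed and the cell labels call them r1 and r2. The names could not be matched, so r1 and r2 may differ in the sort they came from and not only as replicates. Further libraries measured open chromatin by ATAC-seq in cells labelled Mix, EGFR-high, NGFR-high and EGFR/NGFR-high, with 3 libraries each, and 1 library held untreated cells of another melanoma line, WM983B. All groups were cultured cell lines, each a single line, and cells of 1 well or library are not replicates of a condition.

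The cluster was marked by MGP, CEBPD, SORBS2, CBLB, PRELP, NFATC2, PCDH7 and A2M. MGP encodes matrix Gla protein, a secreted protein that binds mineral and bone morphogenetic proteins, and PRELP is a small leucine-rich proteoglycan of the extracellular matrix. NFATC2 is a transcription factor that moves to the nucleus when calcium activates the phosphatase calcineurin, and it commonly acts at DNA beside other factors such as AP-1. CEBPD is a C/EBP transcription factor that responds to stress, inflammatory signals and growth arrest. CBLB is a ubiquitin ligase that limits signalling from receptors, SORBS2 is an adaptor of the actin cytoskeleton and of cell adhesions, PCDH7 is a protocadherin at the cell surface, and A2M is a secreted protease inhibitor. In the GENCODE annotation of hg38 all 8 are protein-coding genes, with MGP at chr12:14880864-14885857 and A2M at chr12:9067664-9116229 on the minus strand, SORBS2 at chr4:185585444-185956652, CBLB at chr3:105655461-105869552 and NFATC2 at chr20:51386957-51562831 also on the minus strand, and PRELP at chr1:203475806-203491352 and PCDH7 at chr4:30720369-31146805 on the plus strand. In melanoma, SOX10 and MITF mark the melanocyte lineage, and cells that lose them often make more matrix and more growth factor receptors.

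The promoters of 3 of the markers and of FN1 (fibronectin, the cell-adhesion protein of the matrix) are shown because the text returns to their transcripts and, for the markers, to the open chromatin at their starts. Each is the 250 bases before the gene start in RefSeq (build GRCh38.p14), read 5′ to 3′ on the strand of the gene, with every match to the core of an NFAT site (GGAAA, or TTTCC on the other strand) in capitals. NFATC2 lies on the minus strand (chr20:51562840-51563089), PRELP on the plus strand (chr1:203475556-203475805), PCDH7 on the plus strand (chr4:30720119-30720368) and FN1 on the minus strand (chr2:215436069-215436318).
NFATC2: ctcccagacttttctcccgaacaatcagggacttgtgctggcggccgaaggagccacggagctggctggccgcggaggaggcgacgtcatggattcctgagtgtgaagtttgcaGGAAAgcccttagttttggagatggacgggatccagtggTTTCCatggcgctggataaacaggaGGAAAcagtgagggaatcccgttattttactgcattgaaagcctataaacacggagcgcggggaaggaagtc
PRELP: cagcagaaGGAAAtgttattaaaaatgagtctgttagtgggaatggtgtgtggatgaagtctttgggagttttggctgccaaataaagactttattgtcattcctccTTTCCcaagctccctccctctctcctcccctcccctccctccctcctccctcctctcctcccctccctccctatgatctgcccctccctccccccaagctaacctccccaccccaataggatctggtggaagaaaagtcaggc
PCDH7: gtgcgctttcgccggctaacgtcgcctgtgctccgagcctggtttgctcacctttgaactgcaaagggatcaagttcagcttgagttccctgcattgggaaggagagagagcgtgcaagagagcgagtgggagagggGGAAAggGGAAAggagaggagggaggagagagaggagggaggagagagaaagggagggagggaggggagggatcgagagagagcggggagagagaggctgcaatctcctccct
FN1: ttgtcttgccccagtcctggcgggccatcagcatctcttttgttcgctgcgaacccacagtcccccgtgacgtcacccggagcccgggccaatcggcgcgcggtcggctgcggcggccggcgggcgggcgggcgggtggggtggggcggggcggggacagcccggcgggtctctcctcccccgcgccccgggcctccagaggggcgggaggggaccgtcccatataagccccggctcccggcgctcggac

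The NFATC2 promoter held 3 matches to the NFAT core, the PRELP and PCDH7 promoters held 2 each, and the FN1 promoter held none. A match to these 5 letters is common, since 55.6% of 35116 promoters of the same length held at least 1. The AP-1 motif (TGACTCA or TGAGTCA) and the SMAD motif (CAGACA or TGTCTG), searched on both strands, had no match in the 4 windows, and 4.2% and 13.6% of all promoters held them. No match says only that these letters were not in these windows. Promoter sequences could be matched by symbol for 5 of the 8 markers.

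Cluster 4 made up 12.4% of the non-primed cells (95% exact binomial interval, 11.8 to 13.1). Its share was 22.2, 27.5, 12.1 and 11.7% of the non-primed cells in wells 1 to 4 (r1) and 18.1, 15.7, 9.12 and 10.6% in wells 5 to 8 (r2). The 4 wells with the highest shares (1, 2, 5 and 6) were also the wells in which most cells were primed, 56.9, 62.4, 79.7 and 76.9% against 6.85 to 9.42% in wells 3, 4, 7 and 8. In r2 the intervals of wells 5 and 6 (10.5 to 28, and 9.97 to 23) reached down to those of wells 7 and 8, whereas in r1 the lowest bound of wells 1 and 2 (16.5) stood above the highest bound of wells 3 and 4 (13.8). No test was made between wells, since wells of 1 replicate can hold cells of the same culture and the intervals cover counting error only. Over whole replicates the share was 13.8% in r1 and 10.2% in r2. The order of the wells depended on the denominator. As a share of all cells, cluster 4 was 9.56, 10.4, 11.1 and 10.9% in wells 1 to 4. In wells 5 to 8 it was 3.68, 3.61, 8.28 and 9.59% of all cells.

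**Figure D1:**
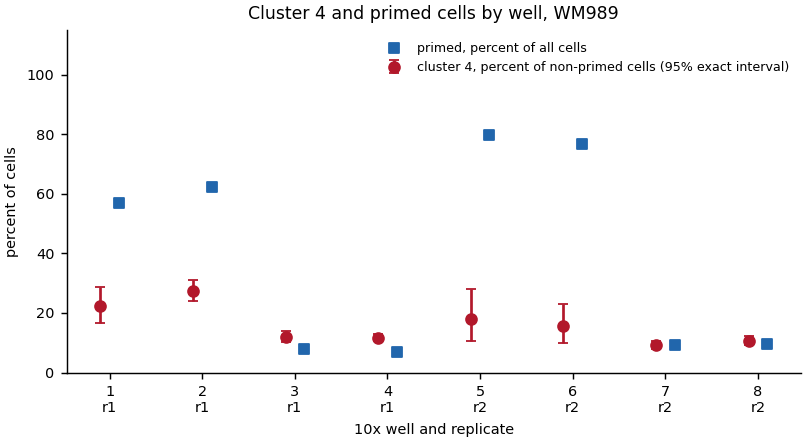
Share of cluster 4 among the non-primed cells (red circles, with 95% exact binomial intervals) and share of primed cells among all cells (blue squares) in each of the 8 wells, in percent. Cluster 4 held 22.2 and 27.5% of the non-primed cells in wells 1 and 2 of r1, 18.1 and 15.7% in wells 5 and 6 of r2, and 9.12 to 12.1% in the 4 wells with few primed cells.

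The cells of cluster 4 were mostly out of S phase and mitosis by the phase labels that came with the cells. Of them 73.3% were in G1, 25.5% in S and 1.25% (15 cells) in G2M, against 18.8, 47.1 and 34.2% of the other non-primed cells, and the G1 share of primed cells was 73.7%. G1 was the largest class of cluster 4 in each of the 8 wells (61.9 to 79.2%). Among the other non-primed clusters, G1 cells were most common in cluster 10 (82.8%) and cluster 5 (52.4%). Cells of cluster 4 had a median of 45304 unique molecular identifiers (UMIs, 1 per captured transcript), against 53700 in the other non-primed and 58253 in the primed cells, and mitochondrial transcripts took 15.6% of their UMIs on average, against 14.4% in the other non-primed cells.

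Levels are given as CPM, the UMIs of a gene summed over the cells of a group and scaled so that all genes of that group add up to 1000000. The clusters were made from these same transcripts, so the levels of cluster 4 against the other cells are a description and carry no test. The levels matched the non-primed label of the cluster. Its SOX10 level was 133 CPM, beside 129 in the other non-primed and 7.09 in the primed cells, and NT5E, the marker of the primed state, was at 20.1, 24.9 and 195 CPM. MITF was at 226 CPM in cluster 4, 324 in the other non-primed cells and 45.7 in the primed cells, lower in cluster 4 in all 7 wells used, but its ratio within G1 cells was 1.1. Ratios within wells use the 7 wells with at least 20 cells of cluster 4, which leaves out well 5 with its 15 cells.

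Pooled over wells, MGP was at 79.4 CPM in cluster 4, 12.7 in the other non-primed cells and 1.48 in the primed cells. By well it was at 123, 89.1, 17.2 and 46.8 CPM in cluster 4 of r1 and at 7.22, 4.09, 154 and 176 CPM in r2. In the other non-primed cells it was at 21.5, 20.4, 15.8 and 16.5 CPM in r1 and at 3.93, 2.64, 7.06 and 5.7 CPM in r2. Cluster 4 was higher in each well, but only barely so in well 3, and its levels in wells 5 and 6 lay below those of the other non-primed cells of r1. The ratio was 3.31 in r1 and 22.4 in r2, where it rested on wells 7 and 8, and within wells it ran from 1.09 to 30.9.

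MGP UMIs came from a minority of the cluster. A UMI of MGP was found in 27% of its cells (95% exact interval, 24.5 to 29.6), in 19.8% of the other non-primed cells and in 3.52% of the primed cells, whose median depth was higher. With each cell thinned to 10000 UMIs these shares were 14.7, 6.38 and 0.668%. The 60 cells of cluster 4 with the most MGP (5%) held 82.7% of its MGP UMIs. NFATC2 was spread far more evenly, with a UMI in 85% of the cells of cluster 4 (47% after thinning) and 19.3% of its UMIs in the top 60 cells. Shares of cells with a UMI also include RNA set free from other cells, and the share in primed cells, 3.52% for MGP and 11.2% for NFATC2, is given as the level in cells where the gene was low.

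NFATC2 was at 77.3 CPM in cluster 4, 31 in the other non-primed and 3.46 in the primed cells, and it was lowest in the primed cells. Its level by well was 83.7, 90.3, 65.8 and 70.2 CPM in cluster 4 of r1 and 75.8, 120, 77.1 and 79.6 CPM in r2. All of these lay above every well of the other non-primed cells (22.2 to 40.6 CPM) and of the primed cells (1.16 to 8.92 CPM). Of the 18 genes of the NFAT and calcineurin list, 12 reached 20 CPM in cluster 4, the other non-primed or the primed cells (called measured below), and NFATC2 was the only one of them past a ratio of 1.5. That was 8.33% of the 12, beside 2.18% of the 5774 genes measured in cluster 4 or the other non-primed cells. NFATC2 is a marker of the cluster, so the count is no result about the list. The median log2 ratio of the list was −0.06, and NFATC3 was at 18.1 CPM in cluster 4 against 25 in the other non-primed cells.

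CEBPD was at 95.6 CPM in cluster 4, against 17 in the other non-primed and 26.8 in the primed cells. Its level differed between wells in every group. In cluster 4 it ranged from 35.2 to 261 CPM (median 65), and the 2 highest were wells 1 and 2, which were also the 2 highest in the other non-primed cells (59.9 and 58.1) and in the primed cells (47.2 and 47.6). Within wells the ratio was 2.91 to 4.49. Among the 6 genes of the C/EBP list 3 were measured, and CEBPB was lower, not higher, in cluster 4 (84.6 against 101 CPM, lower in all 7 wells).

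SORBS2 and CBLB, the adaptor and the ubiquitin ligase, stood at 128 and 56.5 CPM in cluster 4, against 27.5 and 16.3 CPM in the other non-primed cells. In the primed cells SORBS2 was at 44.5 CPM and CBLB at 9.98 CPM. SORBS2 ranged from 77.2 to 344 CPM over the 8 wells of cluster 4 and from 22 to 63 CPM over those of the other non-primed cells, with no overlap. CBLB ranged from 32.7 to 210 CPM in cluster 4 and from 13.7 to 24.9 CPM in the other non-primed cells, also with no overlap, and its ratio was larger in r2 (5.03) than in r1 (2.79). Of the 10 genes of the CBL and SORBS list 7 were measured, only these 2 were higher, and SH2B3, an adaptor that limits cytokine signalling, was lower (18.5 against 40.3 CPM). Of the 6 measured in cluster 4 or the other non-primed cells, 33.3% were higher and 16.7% lower. Over 5774 such genes the shares were 2.18% and 5.66%. The 2 higher genes are markers of the cluster, so their count is no result about the list. CBL itself was at 16.3 against 19.3 CPM.

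PRELP, PCDH7 and A2M completed the markers. PRELP was at 25.1 CPM in cluster 4 (17.9 to 33.2 over wells), 7.79 in the other non-primed cells (4.22 to 13.9) and 4.61 in the primed cells. PCDH7 was at 52.9 CPM (33.8 to 76.6), 20.7 (12.7 to 25) and 7.61. The wells of cluster 4 and of the other non-primed cells did not overlap for either gene. A2M was at 58.6 CPM in cluster 4 (26.5 to 117), 24.9 in the other non-primed cells (9.09 to 79.3) and 7.6 in the primed cells, so its wells overlapped between the groups although cluster 4 was higher within each of the 7 wells (1.35 to 11.6 times). The r1 ratio of 1.94 (3.66 in r2) kept it out of the genes counted below. Only PCDH7 of the 3 measured genes of the cadherin list (15 genes) was past a ratio of 1.5. That was 50% of the 2 measured in cluster 4 or the other non-primed cells, beside 2.18% of 5774 such genes. As PCDH7 is a marker, the count is no result about the list.

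**Figure D2:**
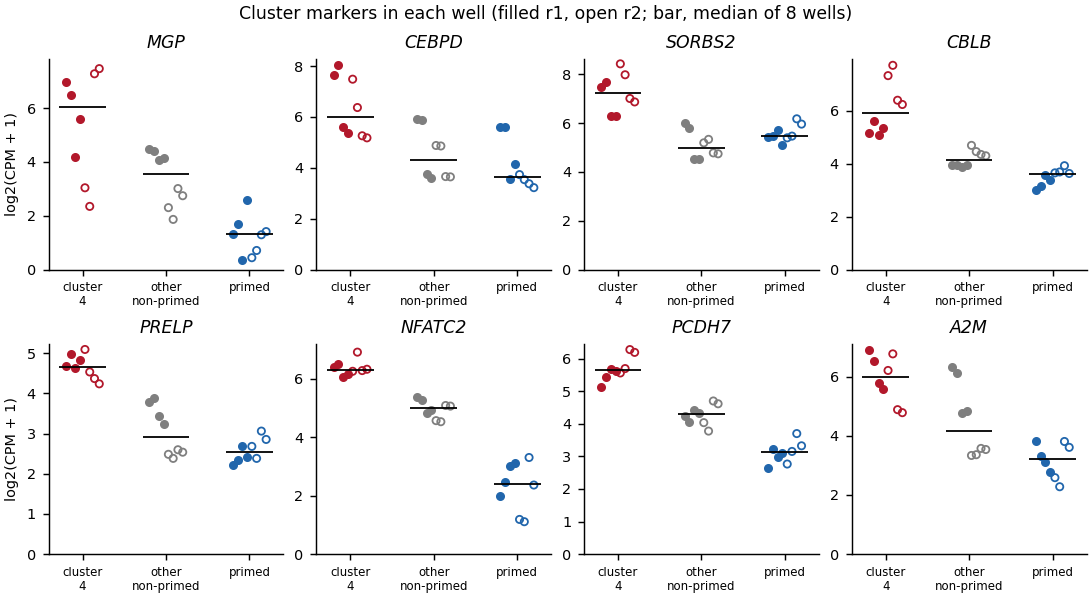
Level of each of the 8 markers, as log2 of CPM + 1, in cluster 4 (red), the other non-primed cells (grey) and the primed cells (blue), with 1 point per well (filled for r1, open for r2) and a bar at the median of the 8 wells. NFATC2 in cluster 4 lay between 65.8 and 120 CPM, above all wells of the other groups, while MGP in cluster 4 ranged from 4.09 to 176 CPM.

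The 8 genes mark cluster 4 in these same cells. Their joint counts and their ranks over clusters therefore describe that choice and are no separate evidence. Cells of cluster 4 carried more of the 8 markers at once. At least 5 of the markers had a UMI in 68.1% of its cells, in 28.6% of the other non-primed cells and in 6.93% of the primed cells. With each cell thinned to 10000 UMIs, at least 3 markers were found in 52.9, 12 and 4.19% of the cells. All 8 were found together in 4.16% of the cells of cluster 4. Each of the 8 markers also had its highest level of all 11 clusters in cluster 4, and the next highest cluster differed by gene (cluster 3 for MGP with 26.5 CPM, cluster 8 for SORBS2 with 62.7 CPM, and cluster 10 for CBLB with 42.8 CPM).

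In all, 33 genes were at least 2 times higher in cluster 4 than in the other non-primed cells in both r1 and r2, which is 0.629% of the 5249 genes with at least 20 CPM in cluster 4. Of these, 31 were higher in all 7 wells used, the exceptions being NNMT (0.231 times in well 3) and RUNX1 (0.904 times in its lowest well), and 28 were at least 2 times higher among G1 cells pooled over the replicates. The full rule applied to G1 cells alone gave 26 genes, 21 of them shared with the 33. All 33 were highest in cluster 4 among the 8 non-primed clusters. The rule that picked them makes this rank likely, and it was not counted over other genes. The margin could be small, as ZNF608 was at 20.5 CPM in both cluster 4 and cluster 10. Against cluster 10, which was also mostly G1, 19 of the 33 were at least 2 times higher in cluster 4. With r2 alone the rule gave 80 genes and with r1 alone 37. Without wells 1, 2, 5 and 6, where primed cells were most common, it gave 24 genes, 22 of them shared with the 33, and SERPINE2, NNMT, RUNX1 and FGFBP2 were among those lost.

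Of the 42 genes of the list of matrix and secreted regulators 22 were measured, 11 were at least 1.5 times higher by the rule for lists and none was lower, where 3.08% of 6421 measured genes were higher and 5.22% lower. The median log2 ratio of that list was 0.83, beside −0.13 over all 6421 genes. Of the 11, 5 (BGN, TNC, THBS1, SPP1 and COL1A1) were under 20 CPM in both groups compared and counted as measured only through the primed cells, where 11.1% of 647 such genes were higher and 1.24% lower. The other 6 were MGP, PRELP, A2M, FN1, COL6A1 and COL6A2, of 16 measured in cluster 4 or the other non-primed cells, where 2.18% of 5774 genes were higher and 5.66% lower, and 3 of them are markers of the cluster. Among its members FN1 was at 328 CPM in cluster 4, 70.4 in the other non-primed cells and 3771 in the primed cells, and COL6A2, a chain of collagen VI, was at 37.2, 14.1 and 809 CPM. Some of the 33 genes outside that list also encode secreted proteins. IGFBP7, a secreted binder of insulin-like growth factors, was at 74.9, 16 and 1534 CPM, MMP2, a gelatin-cleaving protease, at 38.9, 9.41 and 176 CPM, PCOLCE, which helps to mature collagen, at 47.5, 14.6 and 305 CPM, and IGFBP5 at 62.3, 21.6 and 54 CPM. The IGFBP7 level ranged from 15.8 to 419 CPM over the wells of cluster 4. In the r1 wells it was at 177, 144, 21.4 and 15.8 CPM there, against 62.7, 65.1, 7 and 5.17 CPM in the other non-primed cells. Those levels lay closer together than the pooled ones. SERPINE2, a serine protease inhibitor, was at 398, 144 and 402 CPM. By well it ranged from 199 to 1560 CPM in cluster 4 and from 237 to 607 CPM in the primed cells, and cluster 4 was below the primed cells in wells 3 and 4 and above them in the others.

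The level of FN1 in cluster 4 varied with the well, from 107 CPM in well 3 to 1857 in well 5, and so did its level in the other non-primed cells (32 to 276 CPM). Both were highest in wells 1, 2, 5 and 6, where primed cells were most common, and primed cells held 2777 to 5047 CPM in every well. Per UMI of MMP1, a collagenase abundant in primed cells, cluster 4 had 2.99 to 16.8 FN1 UMIs over the wells and the primed cells had 0.703 to 2.35. The other non-primed cells had more FN1 per MMP1 UMI than cluster 4 in well 3 (3.07 against 2.99) and less in the other wells. For SERPINE2 they had more in well 3 (9.99 against 5.57) and well 8 (13.8 against 13.7), and for IGFBP7 in well 3 (0.632 against 0.6). The part of free RNA in the levels of genes that are high in primed cells was not tested.

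The 33 genes were also set beside the primed cells. In 15 of them (45.5%) the primed level was at least 2 times that of the other non-primed cells, in 6 (18.2%) it was at most 0.5 times, and in 12 it lay between. Over the 5249 genes with at least 20 CPM in cluster 4 these shares were 5.64% and 7.6%, with 86.8% between, and no test was made. FN1, IGFBP7, COL6A2, PCOLCE, MMP2 and NNMT, the enzyme that methylates nicotinamide, were high in primed cells. MGP, NFATC2, SGCD, EDNRB, FGFBP2 and PCDH7 were low there. SGCD, a sarcoglycan of the cell membrane, was at 45.3 CPM in cluster 4, 17.3 in the other non-primed and 2.63 in the primed cells, and EDNRB, the endothelin receptor of the melanocyte lineage, was at 71.1, 32.8 and 4.15 CPM. In 17 of the 33 cluster 4 had the highest level of all 11 clusters, and 13 (39.4%) were higher in the primed cells than in cluster 4, where 57.6% of the 5249 genes were.

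**Figure D3:**
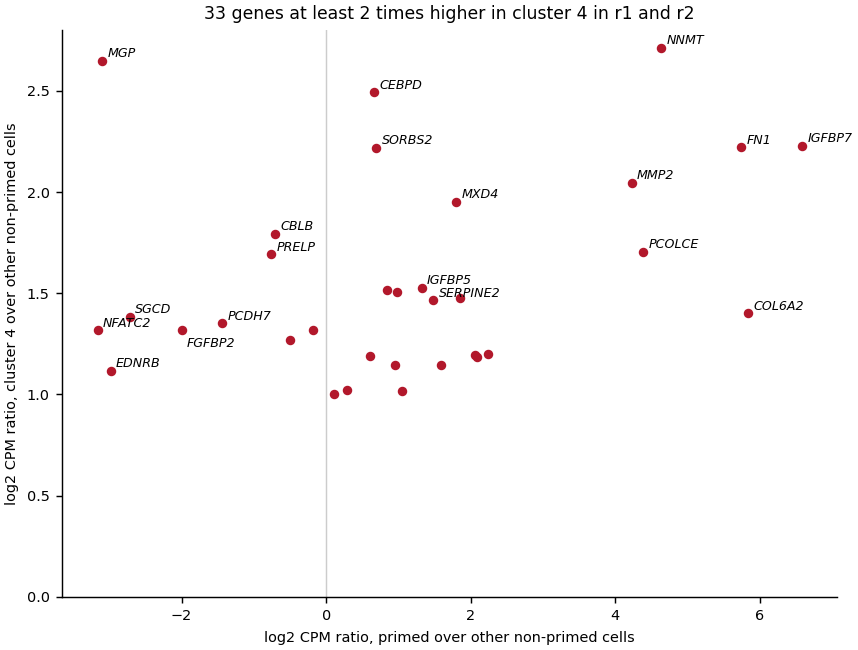
Each of the 33 genes at least 2 times higher in cluster 4 in both replicates, by the log2 ratio of primed to other non-primed cells (horizontal) and the log2 ratio of cluster 4 to other non-primed cells (vertical), with 1 point per gene. Genes such as IGFBP7, COL6A2 and FN1 lie far to the right and MGP, NFATC2 and EDNRB to the left.

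NNMT had the highest pooled ratio (33.5 against 5.11 CPM), but the ratio rested on few wells. Its level in cluster 4 was 89.5 and 141 CPM in wells 1 and 2, 0.0817 and 0.921 CPM in wells 3 and 4, and 2.7 to 25.1 CPM in r2. In the other non-primed cells it was likewise 38.8 and 47.4 CPM in wells 1 and 2 and at most 5.5 CPM elsewhere. In well 3 it was lower in cluster 4, and the pooled ratio of 6.56 lay beside ratios of 0.231 to 7.65 within wells.

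Of the 33 genes, MXD4, a MAX partner that opposes MYC, was at 61.4 CPM in cluster 4 and 15.9 in the other non-primed cells, with ratios of 2.97 to 4.66 within wells. Genes of growth control were also followed in 2 lists by the rule for lists, whose higher members were not among the 33. In the FOXO and PI3K feedback list 6 of 12 measured genes were higher and none was lower, beside 3.08% and 5.22% of all 6421 measured genes (median log2 ratio 0.67). Without the gene measured only through the primed cells it was 5 of 11, beside 2.18% of 5774. They were TXNIP (95.4 against 44 CPM), IRS1 (8.11 against 3.4, measured only through the primed cells), KLHL24, SESN3, PINK1 and HBP1. TXNIP restrains thioredoxin and glucose uptake, and IRS1 is an adaptor of the insulin receptor. Among 15 measured cell cycle brakes only BTG1 was higher (350 against 210 CPM) and CDKN2C, also measured only through the primed cells, was lower (7.54 against 15.8), and the median log2 ratio was −0.21.

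Genes of the cell cycle were among those lower in cluster 4. By the rule 129 genes were at most 0.5 times the level of the other non-primed cells in both replicates, 2.33% of the 5548 genes with at least 20 CPM there, and 27 of them were in the S phase or mitosis lists. DLGAP5, a spindle protein, was at 2.67 against 31.7 CPM, PLK1, a mitotic kinase, at 5.02 against 56.3, and TOP2A, the topoisomerase of dividing cells, at 11.9 against 122. MKI67, the proliferation marker, was at 30.9 CPM in cluster 4, 258 in the other non-primed and 160 in the primed cells. All 22 measured mitosis genes were lower (median log2 ratio −2.69), and 15 of 22 S phase genes were lower (−1.04), where 5.66% of the 5774 genes measured in either group were lower by the same rule. The phase labels rest on genes of this kind, so this count is not separate from the G1 share. Within G1 cells the medians were −1.37 and −0.83, and 74 of the 129 genes were at most 0.5 times there too, while the full rule applied to G1 cells alone gave 36 lower genes.

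Most lineage genes were within a ratio of 1.5 of the other non-primed cells. Of 22 measured melanocyte genes 3 were higher, SOX5 (57.3 against 35.2 CPM), GPNMB (532 against 321) and EDNRB, and 2 were lower, TRPM1 (31.7 against 54.4) and CDK2 (80.3 against 146). The median log2 ratio was 0.07. These shares, 13.6% higher and 9.09% lower, were above those of all 5774 genes measured in either group compared (2.18% and 5.66%). The shares rest on 3 and 2 genes. CDK2 is also a kinase of the cell cycle, so the lower share is no result about lineage genes. Of 13 measured neural crest and glial genes S100B was higher (1013 against 519 CPM, in 6 of 7 wells). That was 9.09% of the 11 measured in cluster 4 or the other non-primed cells, beside the same 2.18%. In the primed state list 5 genes were measured in cluster 4 or the other non-primed cells, of which SERPINE2 was higher, and FOSL1 (28 against 63.5 CPM) and VGF (432 against 788) were lower. A further 18 were measured only through the primed cells, and 7 of them were higher, where 11.1% of all such genes were. These 7 were low in both groups compared, and they included EGFR (6.53 against 2.98 CPM, and 48.1 in primed cells), JUN (8.96, 2.78 and 90.4) and WNT5A (2.43, 0.398 and 54.4). AXL was at 1.01 CPM and NGFR at 1.71 CPM in cluster 4, beside 42.3 and 30.1 CPM in primed cells.

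The remaining lists are given by the same rule for lists (a ratio of 1.5 or 0.67), beside shares over all genes. Of the TGF-beta and BMP response list 2 of 15 were higher, ID2 and PMEPA1. Both were among its 9 genes measured only through the primed cells (22.2%, against 11.1% of 647 such genes). None of its other 6 was higher or lower. Of the ERK output list only FOSL1 of 16 was past the ratio, being lower. That was 7.14% of the 14 measured in cluster 4 or the other non-primed cells, where 5.66% of 5774 genes were lower. In the dissociation and heat stress list 12 genes were measured. JUN was higher, likewise measured only through the primed cells. HSPA1A (22.9 against 50.1 CPM), HSPH1 and DNAJB1 were lower, 30% of the 10 measured in either group compared, beside the same 5.66%. None of the 13 mitochondrial transcripts was past the ratio. Of 18 markers of other cell types 3 were measured and PDGFRA was higher, but at 1.29 against 0.666 CPM, and PTPRC, VWF, EPCAM and KRT5 did not reach the level required. The summed level of that list was 54.9 CPM in cluster 4, 48.2 in the other non-primed and 185 in the primed cells.

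The lineage barcode transcript, which was not among the genes clustered, allowed a test over wells. A barcode UMI was found in 91.4 to 100% of the cells of cluster 4 in the 7 wells used, and in 78.4 to 97.4% of the other non-primed cells. The mean difference was 2.74 percentage points ± 6.46 (SD, n = 7 wells), cluster 4 was higher in 3 of 7 wells, and the exact two-sided sign-flip permutation test gave p = 0.375, where 0.0156 is the smallest p that 7 wells allow. The difference was within the spread between wells. Wells of 1 replicate are not all separate cultures, so the p measures the spread between wells only. Cell barcodes seen in more than 1 well numbered 19, and 6 cells of cluster 4 carried one.

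The treatment experiment held 35944 drug-susceptible cells of 40021 in 8 libraries that were not used to make cluster 4. Its cells carry no label of that cluster, so the genes of cluster 4 were followed in 2 ways, in cells with and without an MGP UMI, and between treatments. MGP UMIs were found in 9.61 and 13.1% of the untreated drug-susceptible cells (r1 and r2), in 22.8 and 24.2% with TGFB1, in 7.02 and 8.88% with TGFBRi and in 7.01 and 10.4% with PI3Ki. Both TGFB1 libraries stood above all 6 others, although their median depth (14846 and 15610 UMIs) was below that of the untreated libraries (18526 and 21929). With cells thinned to 5000 UMIs the shares were 3.85 and 4.42% untreated and 10.7 and 11.7% with TGFB1. Exact tests of 2 libraries against 2 cannot reach 0.05, and none was made on these shares. No cells here are known to lack MGP, so the share that free RNA gives was not measured. The drug-susceptible cluster with the lowest share, cluster 0 (chosen after seeing the values), had a UMI of MGP in 8.29 and 9.04% of its untreated cells, not far below the untreated shares above, in 22.7 and 11.3% with TGFB1, where it held at most 119 cells per library, and in 5.25 to 5.72% with the inhibitors. Its median depth was 15631 UMIs. Primed cells were 2.26 and 4.47% of the untreated and 29.1 and 31.3% of the TGFB1 libraries, they held MGP at 108 and 296 CPM untreated and 45.6 and 57.6 CPM with TGFB1, and 11.5 to 13.8% and 11.4 to 12.1% of them had a UMI of MGP. MGP-positive below means a cell with at least 1 UMI of MGP, which can come from free RNA, and the part of free RNA was not tested. In the experiment that defined cluster 4, 27% of its 1202 cells and 19.8% of the 8486 other non-primed cells had such a UMI. Most non-primed cells with an MGP UMI were thus outside cluster 4, and the MGP-positive class does not stand for that cluster.

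MGP-positive cells shared part of the genes of cluster 4. NFATC2 was at 31.9 and 28.5 CPM in MGP-positive untreated cells (r1 and r2) and at 19.6 and 22.1 CPM in MGP-negative ones. With TGFB1 it was at 26.1 and 28.8 against 20 and 17.9 CPM, with TGFBRi at 36.1 and 38.2 against 29.5 and 29.2 CPM, and with PI3Ki at 22.9 and 18.8 against 18.9 and 17 CPM. The MGP-positive class was higher in all 8 libraries, by 0.42 ± 0.04 on the log2 scale (SE, adjusted p = 3.44e-10, edgeR's quasi-likelihood test with the library as a block and Benjamini-Hochberg adjustment over all 14737 genes tested). PRELP was higher by 0.38 ± 0.08 (adjusted p = 7.06e-04, in 7 of 8 libraries), A2M by 0.34 ± 0.06 (adjusted p = 2.40e-05, in 7 of 8) and CEBPD by 0.15 ± 0.05 (adjusted p = 0.0203, in 8 of 8). SORBS2 (−0.14 ± 0.06, adjusted p = 0.0808), CBLB (−0.03 ± 0.06, adjusted p = 0.793) and PCDH7 (0.01 ± 0.04, adjusted p = 0.914) did not pass the test.

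Some of these calls were lost under other settings. Among G1 cells alone the difference was 0.17 for NFATC2 (adjusted p = 0.157 by the same edgeR test), 0.20 for PRELP (adjusted p = 0.488) and 0.21 for A2M (adjusted p = 0.191). The G1 share of MGP-positive and MGP-negative cells was 35.4 against 33.2% in untreated r1, 31.2 against 31.3% in untreated r2, 38.4 against 40.8% in TGFB1 r1 and 35.7 against 40.9% in TGFB1 r2, and its part in the result beyond the G1 fit was not tested. Without the library term the differences were 0.40 for NFATC2 (adjusted p = 0.252, edgeR), 0.40 for PRELP (adjusted p = 0.4) and 0.34 for A2M (adjusted p = 0.473), close to those with it. PRELP also lost its call without r2 (0.31, adjusted p = 0.161, edgeR) and in the untreated libraries alone (0.46, adjusted p = 0.0666), where NFATC2 stood at 0.52 (adjusted p = 1.41e-09). CEBPD stood at 0.11 to 0.22 under the 9 alternatives and passed under none of them (adjusted p = 0.0557 to 0.819). SORBS2 was higher in MGP-positive cells by 0.20 (adjusted p = 0.0241, edgeR) when MGP was called on cells thinned to 5000 UMIs, and lower by −0.17 (adjusted p = 2.67e-04, edgeR) with no filter on low counts. MGP-positive cells had more UMIs in each library (19056 against 18457 in untreated r1), and the part of depth beyond the thinned call was not tested.

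Of the 33 genes of cluster 4, 32 were tested (MGP itself was left out), 16 were higher in MGP-positive cells and 2 were lower, where 11.6% of all genes tested were higher and 7.27% lower. With G1 cells alone 7 were higher, and with no library term 1. FGFBP2, a secreted protein, was higher by 0.92 ± 0.06 (adjusted p = 4.74e-16 by edgeR), from 8.83 to 17.2 CPM in MGP-negative cells to 12.9 to 28.6 CPM in MGP-positive cells. FN1 was higher by 0.55 ± 0.07 (adjusted p = 1.02e-07), SERPINE2 by 0.50 ± 0.04 (1.15e-12), IGFBP7 by 0.52 ± 0.06 (1.53e-08), PCOLCE by 0.40 ± 0.06 (4.70e-07) and COL6A2 by 0.38 ± 0.06 (7.38e-06). In the other direction, SGCD was lower by −0.34 ± 0.06 (adjusted p = 1.45e-05) and RUNX1, a transcription factor of blood and epithelial cells, was lower by −0.30 ± 0.04 (6.12e-07), both in 8 of 8 libraries. PCOLCE stood at 0.17 in G1 cells (adjusted p = 0.382, edgeR), SGCD at −0.12 with the thinned MGP call (adjusted p = 0.409) and −0.34 in the untreated libraries alone (adjusted p = 0.066), and RUNX1 at −0.24 in the untreated libraries alone (adjusted p = 0.134). SOX10 (0.01), MITF (−0.02) and MKI67 (0.02) did not pass.

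**Figure D4:**
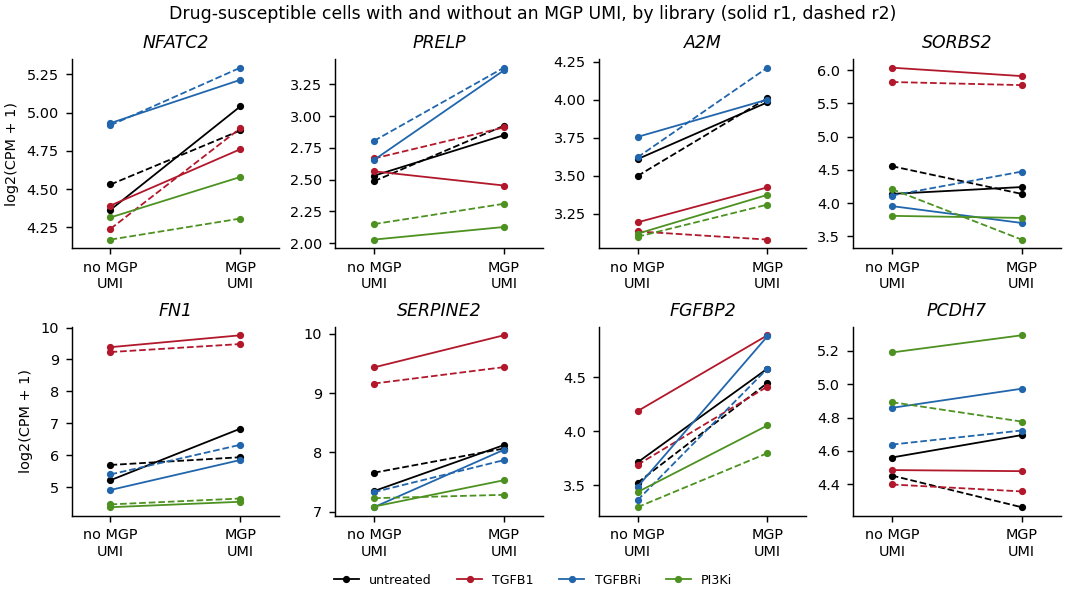
Level of 8 genes, as log2 of CPM + 1, in drug-susceptible cells without and with an MGP UMI in the treatment experiment, with 1 line per library (colour for treatment, solid r1 and dashed r2). NFATC2, FN1, SERPINE2 and FGFBP2 were higher with MGP in all 8 libraries, while SORBS2 was higher in MGP-positive cells in 2 of 8 and PCDH7 in 4 of 8.

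Other matrix genes moved with MGP as well. Of the list of matrix and secreted regulators 24 genes were tested, 15 were higher and 1 lower. Over all genes tested 11.6% were higher and 7.27% lower. The median log2 difference of the list was 0.31, beside 0.00 over all genes. BGN, the proteoglycan biglycan, was 2.83 times higher (adjusted p = 5.15e-10 by edgeR), SPP1, osteopontin, by 1.35 ± 0.10 (2.84e-15) and TIMP1, an inhibitor of matrix proteases, by 0.41 ± 0.02 (3.00e-21). BGN and SPP1 were low in both classes, with medians over libraries of 3.71 against 1.13 and 8.28 against 2.93 CPM. S100A4, which was 2.62 times higher in cluster 4 but only 1.89 times in r1, was higher by 1.09 ± 0.07 (8.59e-16). In cluster 10 of this experiment, primed cells described at the end, BGN was at 58.8, SPP1 at 116 and S100A4 at 261 CPM. In all drug-susceptible cells they were at 1.57, 5.03 and 9.52 CPM. The part of free RNA from primed cells in these differences was not tested. Of 16 genes of the NFAT and calcineurin list tested, NFATC2 and NFAT5 were higher, a share near the 11.6% of all genes. That count is thus no result about the list. The primed state list had 8 of 17 higher, beside the 11.6% of all genes, and 2 lower, beside the 7.27%. EGFR was higher by 0.72 ± 0.15 (2.37e-04), at medians over libraries of 2.13 against 1.28 CPM, and NT5E by 0.22 ± 0.04 (1.73e-04). AXL (−0.20 ± 0.18) and NGFR (−0.09 ± 0.22) did not pass. Of the mitosis genes 6 of 24 were higher and 3 lower, and of the S phase genes 1 of 24 was higher and 6 lower. Beside 11.6% higher and 7.27% lower over all genes, the 6 higher mitosis genes and the 6 lower S phase genes were a larger share. The 1 higher S phase gene was a smaller share, and the 3 lower mitosis genes were not far from the 7.27%.

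TGFB1 raised many of the genes of cluster 4 in drug-susceptible cells. MGP was at 8.9 and 11.4 CPM in the untreated libraries (r1 and r2) and at 43.5 and 38.5 CPM with TGFB1, a rise of 2.02 ± 0.12 on the log2 scale (adjusted p = 3.34e-11, edgeR's quasi-likelihood test with the replicate as a block and Benjamini-Hochberg adjustment over 17914 genes). SORBS2 rose from 16.7 and 21.7 to 63.3 and 55.1 CPM (1.63 ± 0.10, adjusted p = 5.01e-11) and CEBPD from 8.38 and 10.2 to 16.6 and 18.7 CPM (0.92 ± 0.08, adjusted p = 9.99e-09). In these sums a larger share of cells with the transcript and more of it per cell cannot be told apart. The drug-susceptible cells given TGFB1 were spread over the clusters differently from the untreated ones. Cluster 3 of this experiment, drug-susceptible cells with FN1 at 1228, SERPINE2 at 1153, SORBS2 at 110 and MGP at 51.3 CPM, held 56.8 and 42% of the drug-susceptible cells with TGFB1 (r1 and r2), 1.38 and 1.67% of the untreated ones, and 0.133 to 0.911% with TGFBRi or PI3Ki. It was made from these same transcripts, so the levels outside it are a description. There FN1 was at 33.2 and 40.5 CPM untreated and at 258 and 232 CPM with TGFB1, MGP at 8.51 and 11.5 against 30.1 and 33.5 CPM, SORBS2 at 15.7 and 18.9 against 28.3 and 24.7 CPM, and CBLB at 10.7 and 11.6 against 7.6 and 11 CPM. The first 3 were thus higher with TGFB1 outside cluster 3 too, by less than over all drug-susceptible cells, and CBLB was not. CBLB rose by 0.37 ± 0.07 (adjusted p = 0.00112), a call that was lost without the TGFB1 r1 library (0.32, adjusted p = 0.0527).

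The other 4 markers did not pass as higher. NFATC2 was at 20.8 and 23 CPM untreated and at 21.4 and 20.7 CPM with TGFB1 (−0.07 ± 0.07, adjusted p = 0.591 by edgeR), PRELP at 4.93 and 4.87 against 4.81 and 5.65 CPM (0.08 ± 0.10, adjusted p = 0.683), and PCDH7 at 22.9 and 20.6 against 21.3 and 19.9 CPM (−0.09 ± 0.07, adjusted p = 0.468). A2M fell by 0.49 ± 0.08 on the log2 scale (adjusted p = 1.59e-04), from 11.6 and 11 to 8.53 and 7.7 CPM. Among G1 cells alone NFATC2 was higher with TGFB1 by 0.37 (adjusted p = 0.00963), and the fall of A2M (−0.23) had an adjusted p of 0.208. Over all cells, primed ones included, PCDH7 was called lower with TGFB1 (−0.39, adjusted p = 1.02e-04, edgeR).

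Across the 33 genes 22 rose with TGFB1 and 1 fell, beside 8.56% and 6.32% of all genes tested. FN1 rose from 43.7 and 52.1 to 715 and 630 CPM (3.81 ± 0.11, adjusted p = 5.68e-17 by edgeR), IGFBP5 from 20.6 and 14.3 to 174 and 103 CPM (2.96 ± 0.08, adjusted p = 1.71e-17) and MMP2 from 3.66 and 5.04 to 31.8 and 27.3 CPM (2.76 ± 0.13, adjusted p = 7.41e-13). The primed cells of the same libraries, whose share was higher with TGFB1, held FN1 at 3310 and 3634 CPM untreated and 8474 and 8855 CPM with TGFB1, and the part of their free RNA in these levels was not tested. IGFBP7 rose by 2.23 ± 0.14, SERPINE2 by 1.83 ± 0.11, COL6A2 by 1.29 ± 0.09 and MXD4 by 0.53 ± 0.10. SGCD (−0.04 ± 0.09) and PCOLCE (−0.03 ± 0.09) did not pass. The gene that fell was IFITM3, an interferon-induced membrane protein (−0.24 ± 0.08, adjusted p = 0.034), and this call was lost whichever of the 4 libraries compared was left out. The number of the 33 that rose was 16 to 21 when 1 library was left out. Of the matrix list 19 of 30 rose and 1 fell, of the FOXO and PI3K feedback list 11 of 21 rose and 1 fell, and of the TGF-beta and BMP response list 14 of 24 rose and 5 fell.

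With TGFBRi, 8 of the 33 genes rose and 1 fell, beside 1.22% and 1.59% of all genes tested. NFATC2 rose from 20.8 and 23 CPM to 30 and 30.1 CPM (0.47 ± 0.07, adjusted p = 2.32e-04 by edgeR), PCDH7 from 22.9 and 20.6 to 28.2 and 24 CPM (0.28 ± 0.07, adjusted p = 0.0203) and PCOLCE from 10.7 and 9.29 to 13.1 and 13.9 CPM (0.45 ± 0.08, adjusted p = 0.00266). CEBPD fell by 0.38 ± 0.08 on the log2 scale (adjusted p = 0.011), from 8.38 and 10.2 to 6.52 and 7.56 CPM. The call of CEBPD was lost in G1 cells and without untreated r1, untreated r2 or TGFBRi r2 (−0.39 to −0.36, adjusted p = 0.0513 to 0.137, edgeR), and that of PCDH7 in G1 cells and without either untreated library (0.21 to 0.30, adjusted p = 0.177 to 0.264), and both were lost without the replicate block. MGP was at 7.39 and 11.6 CPM (−0.09 ± 0.13, adjusted p = 0.843), SORBS2 at 14.3 and 16.8 CPM (−0.29 ± 0.11, adjusted p = 0.193, but −0.60 with adjusted p = 0.0115 in G1 cells and −0.41 with adjusted p = 0.0409 without untreated r1) and FN1 at 31.3 and 44.9 CPM (−0.32 ± 0.11, adjusted p = 0.127). The count of 8 rested on the replicate block, since 1 gene rose without the block, and leaving out 1 library gave 2 to 12.

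PI3Ki split the genes. Of the 33, 8 rose and 7 fell, beside 5.89% and 6.22% of all genes tested. PCDH7 rose from 22.9 and 20.6 to 35.7 and 28.5 CPM (0.65 ± 0.07, adjusted p = 4.09e-07 by edgeR), CEBPD from 8.38 and 10.2 to 11.5 and 14.5 CPM (0.59 ± 0.08, adjusted p = 2.17e-05), CBLB by 0.49 ± 0.07 (adjusted p = 6.84e-05) and MXD4 by 0.78 ± 0.09 (adjusted p = 4.39e-06). Of the matrix list 12 of 30 fell, FN1 among them, and 1 rose. Of the 33 genes, IGFBP7 fell by 1.74 ± 0.18 on the log2 scale (adjusted p = 3.78e-07), from 4.98 and 11.3 to 1.3 and 3.05 CPM, MMP2 went from 3.66 and 5.04 to 1.74 and 1.79 CPM (adjusted p = 4.74e-05), FN1 fell by 1.12 ± 0.11 and IGFBP5 fell by 0.71 ± 0.09. Among the markers PRELP fell by 0.47 ± 0.10 (adjusted p = 0.00302) and A2M fell by 0.43 ± 0.08 (adjusted p = 7.36e-04), while MGP (−0.27 ± 0.13, adjusted p = 0.211), SORBS2 (−0.27 ± 0.11, adjusted p = 0.107) and NFATC2 (−0.17 ± 0.07, adjusted p = 0.129) did not pass. A2M stood at −0.07 in G1 cells (adjusted p = 0.741, edgeR) and at −0.36 without PI3Ki r1 (adjusted p = 0.0528). PRELP lost its call without untreated r1 (−0.36, adjusted p = 0.0971), without PI3Ki r1 (−0.42, adjusted p = 0.0669) and without the replicate block (adjusted p = 0.0542). MGP was called lower over all cells, primed ones included (−0.66, adjusted p = 0.002, edgeR), and with no filter on low counts (adjusted p = 0.023), and SORBS2 with no filter (adjusted p = 0.00984) and without untreated r1 (−0.39, adjusted p = 0.0225). Of the mitosis list 16 of 24 fell and none rose. Without the replicate block 5 of the 33 rose, and without the PI3Ki r2 library likewise 5.

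**Figure D5:**
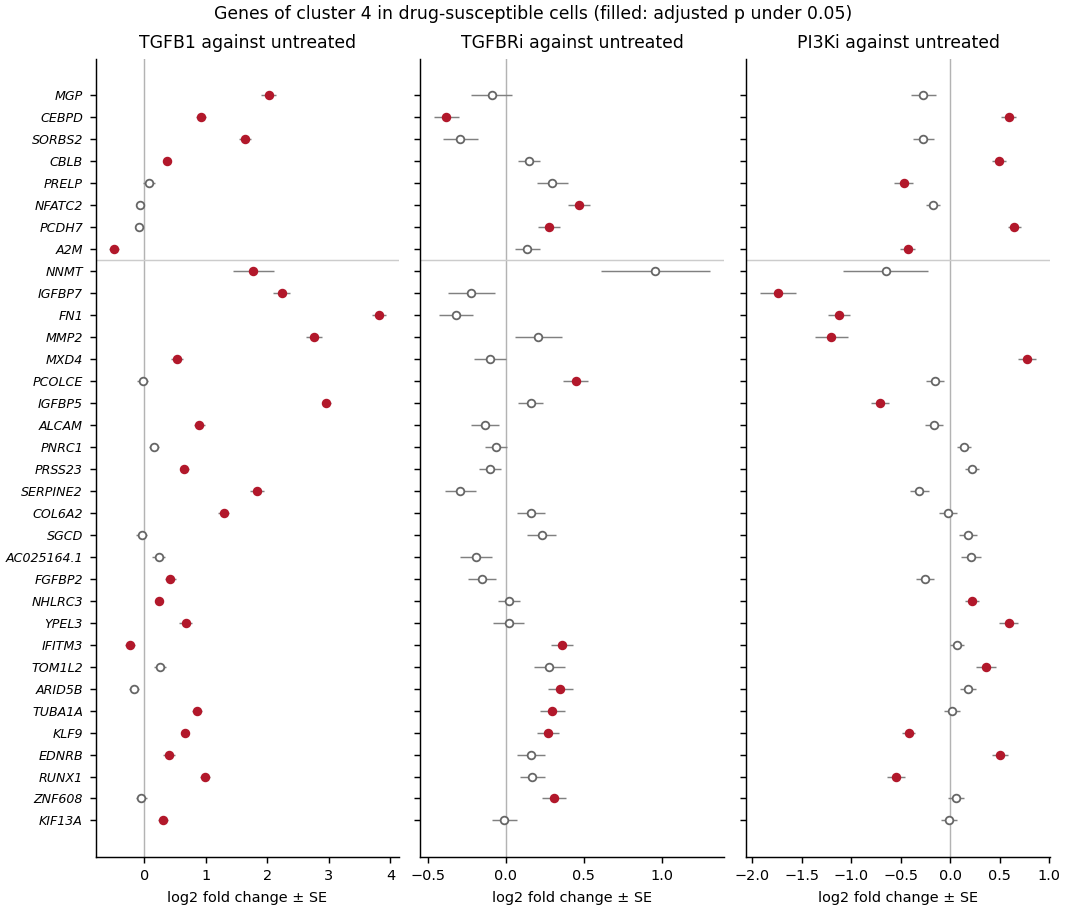
Log2 fold change against untreated with its standard error for the 8 markers (above the line) and the other genes of the 33 in drug-susceptible cells, for TGFB1, TGFBRi and PI3Ki in 3 panels with their own scales. Filled points have an adjusted p under 0.05 by edgeR, and the 3 comparisons share the untreated libraries. FN1 stood at 3.81 with TGFB1, −0.32 with TGFBRi and −1.12 with PI3Ki.

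None of the 3 treatments raised all 8 markers. All 3 comparisons used the same 2 untreated libraries, so their values are set side by side and no likeness between them was tested. MGP stood at 2.02, −0.09 and −0.27 with TGFB1, TGFBRi and PI3Ki, SORBS2 at 1.63, −0.29 and −0.27, CEBPD at 0.92, −0.38 and 0.59, and CBLB at 0.37, 0.15 and 0.49. NFATC2 stood at −0.07, 0.47 and −0.17, PCDH7 at −0.09, 0.28 and 0.65, PRELP at 0.08, 0.30 and −0.47, and A2M at −0.49, 0.14 and −0.43.

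Open chromatin at the starts of the markers was compared between EGFR/NGFR-high cells, the sort for the primed state, and the Mix cells, using the fold enrichment of the highest ATAC peak within 1000 bases of the annotated gene start. Where a library listed the same interval more than once, only its first entry was kept. A higher entry of that interval may thus have been left out. The study's methods describe a sort that lacked both markers where the labels say Mix, and none of these libraries was sorted for cluster 4. At PRELP the enrichment was 31.5, 36.4 and 31.8 in EGFR/NGFR-high and 19.7, 23.6 and 16.5 in Mix (33.2 ± 2.74 against 19.9 ± 3.56, SD, n = 3 each, exact permutation test p = 0.1, adjusted p = 0.35 over 7 genes). At NFATC2 it was 36.3, 24.6 and 25.3 against 21.1, 23.1 and 24.2 (28.7 ± 6.57 against 22.8 ± 1.6, exact permutation p = 0.1, adjusted p = 0.35). The 2 groups did not overlap at these 2 genes, and 0.1 is the smallest p that 3 against 3 libraries allow. At NFATC2 the nearest values were close (24.6 against 24.2), and EGFR/NGFR-high library 1 (36.3) lay apart from 24.6 and 25.3. How often other gene starts separate in this way was not counted, so no meaning is drawn from the separation. The enrichments were not scaled between libraries here. Transcripts of both genes were lower in the primed than in the other non-primed cells, 4.61 against 7.79 CPM for PRELP and 3.46 against 31 CPM for NFATC2.

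The other markers overlapped between the 2 sorts. MGP had an enrichment of 11 ± 1.42 in EGFR/NGFR-high and 14.9 ± 4.52 in Mix (exact permutation p = 0.3), CEBPD 14.8 ± 0.565 and 22.8 ± 7.95 (p = 0.3, exact permutation), PCDH7 17.2 ± 9.23 and 10.2 ± 1.27, A2M 32.4 ± 3.25 and 29.7 ± 6.17, and CBLB 17 ± 16.9 and 16.3 ± 17 (SD, n = 3). The highest peak at MGP was not the same site in all libraries. In Mix libraries 1 and 2 (17 and 17.9) it lay inside the gene (chr12:14884393-14884955 in library 1), and in Mix library 3 (9.68) and the 3 EGFR/NGFR-high libraries (9.43 to 12.2) over the gene start, so the MGP means compare different sites. At PCDH7 likewise, the peak of EGFR/NGFR-high library 3 (chr4:30719061-30720155) did not overlap that of Mix library 1 (chr4:30720172-30720936). CBLB had 1 library far above the other 2 in both groups. Its peaks in Mix library 1 (7.62) and Mix library 2 (35.8) covered nearly the same interval. The part of the entry kept in this spread was not tested. No peak lay within 1000 bases of the annotated start of SORBS2 in any of the 12 libraries. In EGFR-high and NGFR-high cells PRELP had 30.6 ± 6.58 and 30 ± 4.49, and NFATC2 had 25.7 ± 3.59 and 30.1 ± 4.49.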

How the data were processed

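Single-cell libraries were made with 10x Genomics protocols, and the authors deposited raw UMI counts. Per the study's methods these came from the Cell Ranger pipeline (reference hg38), were joined over runs with no scaling for depth, and followed a filter of cells on genes detected and mitochondrial reads in Seurat. That filter on genes also served to remove likely doublets, and no doublet caller was run here. Cluster, phase, state, well and replicate came from the deposited cell labels. Total counts were 35882876 to 177318308 UMIs per well in the untreated experiment and 70239657 to 122420544 per library in the treatment experiment. For ATAC-seq the authors deposited MACS2 peak lists, called per library, with fold enrichment as a ratio to background, and with −log10 p-values and q-values. Bowtie2 2.3.4.1 and MACS2 2.1.1.20160309 are the versions in the submitters' processing notes.

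The members and gene lists were chosen with earlier results of these data known. Counts were summed over cells per group and well and scaled to CPM. Ratios between clusters carry no test. Genes counted as higher needed at least 20 CPM in cluster 4 and a ratio of at least 2 in r1 and r2, and lower genes at least 20 CPM in the other non-primed cells and at most 0.5. Lists used a ratio of at least 1.5 or at most 0.67 in r1, in r2 and in both together, over genes with at least 20 CPM in cluster 4, the other non-primed or the primed cells. Genes named were the 8 markers, the 20 with the highest and the 10 with the lowest ratio on the same side of 1 in both replicates and in each well with at least 20 cells of cluster 4, members of the lists past 1.5 or 0.67, and SOX10, MITF, EGFR, AXL, NGFR, NT5E and MKI67. Others of the 33 genes were named from that count.

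In the treatment experiment, counts of drug-susceptible cells were summed per library, or per library and MGP class (at least 1 UMI or none), and tested with edgeR 4.0.16 (quasi-likelihood test, TMM scaling) in R 4.3.3, with p-values adjusted by Benjamini-Hochberg over all genes that passed a filter on low counts. The study's methods split the cells of each replicate over the 4 treatments, and libraries with the same number deviated together (correlation 0.247 to 0.358 over 6 pairs of treatments), so replicate was a block. Residual degrees of freedom were 3 for treatments and 7 for MGP classes. DESeq2 1.42.0 was an alternative. Gene starts came from GENCODE on hg38 and promoters from RefSeq. The model and the ratio rule were tested on simulated data. For the ratio rule these were Poisson counts with no spread between wells. That test cannot show how the rule behaves where wells differ as they did here. The r1 and r2 libraries could not be matched to the labels Mix and Primed of the samples, so the fits used the treatment and, as the block, r1 or r2. Replicates may share a source culture, so p-values measure the spread between these libraries. Exact intervals cover counting error only. Lineage sequences and columns of peak significance were not used here.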

Additional observations from a re-analysis of the deposited data

Results flagged for a closer look

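In groups of 4 wells, 3 of 34 sets of values had a well set apart from the other 3 by more than 0.829 of the range, Dixon's critical value, which chance gives in about 1 in 20 sets. The share of other non-primed cells with a lineage barcode UMI was 78.4% in well 2, below the other wells of r1 (95.3 to 97.4%). MMP2 was at 49.8 CPM in cluster 4 of well 2, above the other wells of r1 (26.4 to 27.9 CPM). NFATC2 was at 120 CPM in cluster 4 of well 6, above the other wells of r2 (75.8 to 79.6 CPM), and that well held 21 cells of the cluster.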

How the results depend on the processing

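The share of cluster 4 among non-primed cells was 10.2 to 13.8% with 1 replicate left out and 11% in wells 3, 4, 7 and 8 alone, an alternative chosen after seeing the data. Clusters made anew without integration put 45.5% of its cells in 1 cluster of 13.9% of the non-primed cells, with 67% of the r1 cells and 0.258% of the r2 cells, and with genes scaled within replicate (also chosen after seeing the data) 83.7% in a cluster of 21.4%, of which 48.3% was cluster 4. Higher genes numbered 88 at 5 CPM, 107 against cluster 3 alone, 67 against cluster 5 alone, 14 with the ratio required in each well used, and 37 to 80 with 1 replicate left out. Lower genes numbered 36 in G1 cells, 196 at 5 CPM, 58 against cluster 5 alone and 147 to 204 with 1 replicate left out. Genes that differed with MGP numbered 2779, and 1688 with the thinned call, 971 in G1 cells, 912 in the untreated libraries alone and 1136 to 1730 with 1 replicate left out. The higher ones of the 33 were 7 in G1 cells and 8 in untreated libraries, and the lower ones 1 with the thinned call and 0 in untreated libraries. Without the replicate block the counts were 45 for MGP (1 of the 33 higher and 0 lower), 1189 for TGFB1 against 2665 with it (0 of the 33 lower), 47 against 503 for TGFBRi (1 higher and 0 lower) and 570 against 2170 for PI3Ki (5 higher). TGFB1 gave 5324 genes over all cells and 988 to 2098 with 1 library left out, and 0 of the 33 lower by DESeq2, in G1 cells and with any library left out, so the call of IFITM3 did not last. TGFBRi gave 329 genes by DESeq2, 210 in G1 cells and 206 to 1247 with 1 library left out, with 2 of the 33 higher in G1 cells, 2 to 12 higher and 0 to 3 lower with 1 library left out, 4 lower with no filter on low counts and 3 lower over all cells. PI3Ki gave 632 to 1237 genes and 5 to 7 of the 33 higher with 1 library left out, and 11 lower both with no filter and over all cells. NNMT turned to −0.56 with MGP in untreated libraries (adjusted p = 0.757) and IFITM3 to 0.29 with TGFB1 over all cells (adjusted p = 0.00577, edgeR). Of genes that had not passed, SORBS2 turned to 0.20 with the thinned MGP call, NFATC2 to 0.37 with TGFB1 in G1 cells, and PCOLCE to 0.62, ARID5B to 0.42 and ZNF608 to 0.27 with TGFB1 over all cells, each then past the threshold. Of the other expression values of single named genes 792 kept their sign and side of the threshold, 60 had opposite signs but passed in neither fit, 104 lost the call and 35 gained one. The barcode difference was 1.62 to 3.57 points with 1 replicate left out, and its exact permutation p was 0.405 with wells unpaired. ATAC numbers did not pair the libraries (correlations −0.565, −0.638 and 0.784 over 7 genes), and none of the ATAC tests could pass, since p cannot go below 0.1 with 3 libraries each, 0.25 in the sign-flip test with the replicate block and 0.333 with 1 replicate left out. The cause of each change was not tested, other than fewer samples or genes where the alternative removes them.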

Other observations

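A cluster of the treatment experiment that was singled out after its values were seen carried several markers of cluster 4. It was cluster 10 there, 807 cells that the cell labels call primed, with SOX10 at 78.8 CPM. MGP was at 190 CPM in it, 40 in the other primed cells and 15.3 in the drug-susceptible cells, A2M at 29.5, 2.97 and 9.86 CPM, NFATC2 at 40.3, 16.2 and 22.7 CPM, and PRELP at 8.92, 1.84 and 4.78 CPM. CEBPD was at 19.2, 5.48 and 11.6 CPM, and CBLB at 28.9, 23.5 and 13.8 CPM, in the same order. SORBS2, at 66, 121 and 24.8 CPM, was below the other primed cells. PCDH7 was not above the drug-susceptible cells (23.4 against 25.5 CPM). In the untreated libraries cluster 10 held 89 of 94 and 159 of 165 primed cells (r1 and r2). With TGFB1 it held 29 of 1577 and 51 of 1757. The other primed cells were thus mostly given TGFB1, so cluster and treatment cannot be told apart in that comparison. Untreated primed cells here held MGP at 108 and 296 CPM, against 1.48 CPM in the primed cells of the experiment that defined cluster 4. Of the 33 genes of cluster 4, 30 were above the drug-susceptible level and 23 (69.7%) at least 2 times above it, where 61% and 14.1% of 17914 genes were. Against the other primed cells 21 of the 33 (63.6%) were higher, beside 63.4% of all these genes. These are descriptions without a test. Its share of all cells was 2.14 and 4.31% in the untreated libraries (r1 and r2), 0.535 and 0.908% with TGFB1, 2.26 and 4.32% with TGFBRi, and 0.57 and 1.18% with PI3Ki.

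In untreated WM983B cells, 1 library of 1449 cells with no replicate, NFATC2 was at 25.3 CPM (95% exact Poisson interval, 24.3 to 26.3, counting error only), SORBS2 at 27.4, CEBPD at 18.7 and CBLB at 14.5 CPM. By the deposited clusters NFATC2 was at 33.7 CPM in cluster 0 (95% exact interval, 31.9 to 35.5), 16.7 in cluster 1 (15.6 to 17.9), 33.3 in cluster 2 (29 to 38.1) and 24.3 in cluster 3 (20.9 to 28.1), and FN1 was at 1003, 588, 1153 and 684 CPM in the same order, so here NFATC2 was lowest in the cluster with the least FN1. MGP was at 2.55, PRELP at 1.34, PCDH7 at 4.19 and A2M at 4.22 CPM, and FN1 was at 802 CPM.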
